A study of Mus musculus with 24 samples.

Results

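The 36 genes described here encode the machinery of excitation-contraction coupling and calcium handling, followed over 8 time points while mouse C2C12 myoblasts turned into myotubes. In skeletal muscle an action potential runs into the transverse tubules, where a voltage sensor built around Cacna1s opens the release channel Ryr1 of the sarcoplasmic reticulum across a narrow junction. The calcium held in the reticulum by calsequestrins flows out to the filaments, and SERCA pumps return it. Most other cells release stored calcium through IP3 receptors and refill the store through STIM sensors and ORAI channels. The genes were therefore divided by textbook knowledge into 21 largely specific to muscle and 15 expressed in many tissues, called ubiquitous below. This division was made with earlier results of these data known. Each gene was read from 1 probe set, the one with the highest mean over all arrays among those annotated to that symbol alone. Such a probe set was found for 34 of the 36 genes (20 muscle-specific and 14 ubiquitous), out of 18194 genes measured in this way, and Scn4a and Itpr1 were not analysed here. Levels reached an intensity of 100 at 1 or more time points for 25 of the 34, and these 25 (16 muscle-specific and 9 ubiquitous) were tested.

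C2C12 is a line of mouse skeletal myoblasts that fuse into multinucleate myotubes once serum is lowered. RNA was measured on 24 Affymetrix arrays of 45101 probe sets, 3 for each time point. All arrays come from cultures of this line, with no genetic change or drug: Day -1 is growth medium with 10% serum at 50% confluency, Day 0 is 90% confluency when differentiation was induced, Day 0.25 is 6 hours later, and Days 1 to 5 are days in reduced serum (2% in the labels), renewed every 2 days. The labels do not say whether the 3 arrays of a time point came from separate cultures, so p-values measure the spread between arrays, which may be technical, and their number limits the precision. Levels are means over the 3 arrays of a day, given with their SD (n = 3), and a log2 change is the later minus the earlier mean of log2 intensities, given with its SE. The threshold was an adjusted p of 0.05 (limma, Benjamini-Hochberg over all probe sets tested). In RNA from whole cultures, fewer cells of a kind and less RNA per cell cannot be told apart, and the share of cells that had fused was not measured on these arrays.

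The arrays were alike in scale, with medians between 3.64 and 3.88 and 25.4% to 27.0% of probe sets at 100 or more. Of 10 markers of skeletal myoblasts and myotubes, 7 reached 100 on Day -1 and 9 on Day 5, while Pax7 stayed under 10 throughout. None of 9 cardiac markers reached 100, and Ryr2, the release channel of the heart, and Pln, the inhibitor of the cardiac pump, stayed under 10 at all time points. Of 6 fibroblast markers 1 reached 100 on Day -1 and 4 on Day 5, and their summed intensity went from between 5022 and 6417 to between 12833 and 15657. The sum of 6 neuronal markers went from between 7960 and 8463 to between 168 and 361, with Snap25, Syt1 and Rbfox3 under 10 throughout. Acta2 and Smtn were the only 2 of 6 smooth muscle markers to reach 100, but the sum of the 6 went from between 1887 and 2658 to between 8229.8 and 8479.7, and at most 1 of 4 measured adipocyte markers did at any time point. The part of other cells in the changes below was not tested. By the array's naming, the probe sets of Cacnb1, S100a1, Casq2, Itpr2, Asph and Fkbp1a may bind more than 1 transcript.

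Promoters of members are shown first, as a description. The share of windows that hold motifs of myogenic factors is given after the sequences. RefSeq windows of 250 bases before the start (GRCm38.p6) were found for 22 members, 25 windows in all, 17 of them of muscle-specific genes and 8 of ubiquitous ones. The 4 sequences below belong to the voltage sensor, the fast pump and the 2 calsequestrins, written 5′ to 3′ on the gene's strand and ending at the base before the start. Capitals mark matches to the E-box CANNTG, bound by factors such as MyoD and myogenin, and in Casq2 also to the MEF2 site.
Cacna1s, chr1:136052561-136052810, plus strand: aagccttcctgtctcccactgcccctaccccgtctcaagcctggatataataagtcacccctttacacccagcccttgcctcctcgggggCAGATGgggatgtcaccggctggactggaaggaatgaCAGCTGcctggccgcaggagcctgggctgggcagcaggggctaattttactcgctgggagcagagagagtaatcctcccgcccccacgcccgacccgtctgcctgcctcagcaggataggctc
Atp2a1, chr7:126463074-126463323, minus strand: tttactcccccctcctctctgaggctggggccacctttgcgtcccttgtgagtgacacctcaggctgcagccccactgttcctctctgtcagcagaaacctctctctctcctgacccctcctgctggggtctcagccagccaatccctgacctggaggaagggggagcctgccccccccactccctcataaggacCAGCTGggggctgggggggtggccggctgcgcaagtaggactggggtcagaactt
Casq1, chr1:172219896-172220145, minus strand: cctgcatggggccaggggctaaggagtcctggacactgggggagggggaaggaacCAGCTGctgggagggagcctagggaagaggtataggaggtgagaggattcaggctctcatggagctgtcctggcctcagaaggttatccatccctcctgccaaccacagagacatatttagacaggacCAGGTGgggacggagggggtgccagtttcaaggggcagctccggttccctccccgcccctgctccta
Casq2, chr3:102086165-102086414, plus strand: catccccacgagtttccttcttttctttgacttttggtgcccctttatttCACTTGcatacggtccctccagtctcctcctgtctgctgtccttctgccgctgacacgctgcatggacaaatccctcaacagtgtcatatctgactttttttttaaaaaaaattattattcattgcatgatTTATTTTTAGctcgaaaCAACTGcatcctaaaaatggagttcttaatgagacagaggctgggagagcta
The Cacna1s window held the E-box CAGCTG at positions -123 to -118, the Atp2a1 window held it at -55 to -50, and the Casq1 window held it at -195 to -190 together with CAGGTG at -67 to -62. The Casq2 window held neither of those, but a MEF2 site at -69 to -60 and the E-box CAACTG at -52 to -47.

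Searched on both strands, CAGCTG lay in 7 of 17 muscle-specific and 2 of 8 ubiquitous windows, against 13.0% of all 32841 windows of the table. The 2 Jph2 windows overlap and hold the same copy. CAGGTG lay in 2 of 17 and 0 of 8 (17.2% of all), and the loose E-box CANNTG, which includes both, in 11 of 17 and 4 of 8 (66.2% of all). A MEF2 site lay in 3 of 17 windows, those of Casq2, Clcn1 and Pvalb, and in 0 of 8 (2.92% of all). Of these, Clcn1 and Pvalb were under 10 on all arrays, as was Sypl2, whose window is among those with CAGCTG. The CArG box of SRF was in no member's window (1.47% of all). The Ryr1 window, chr7:29125152-29125401 on the minus strand, held none of these motifs, and neither did those of S100a1, Tmem38a and Scn4a. These are letter matches in short windows, given as a description.

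Over the whole course the tested muscle-specific genes rose together and the tested ubiquitous genes split. The classes were chosen with earlier results of these data known, so the contrast between them is a description. From Day -1 to Day 5 all 16 muscle-specific genes tested were higher, where 31.9% of all probe sets tested were higher and 38.4% lower. Of the 9 ubiquitous genes tested, 4 were higher (Cacna2d1, Tmem38b, Atp2a2 and Orai1), 3 were lower (Asph, Fkbp1a and Itpr3) and 2 did not pass (Stim2 and Camk2g). The median log2 change was 4.60 for the muscle-specific genes, 0.34 for the ubiquitous ones and -0.08 for all probe sets. 13 of the 16 muscle-specific genes were below 100 on Day -1, so their folds start from the lower end of the scale. These 13 passed the level filter only through later days on which they were higher, so the filter itself favoured a rise. Another 4 measured muscle-specific genes (Clcn1, Sypl2, Sln and Pvalb) were under 10 on all arrays and not tested. An F test over the 8 time points passed for 25 of 25 members, as it did for 88.8% of all probe sets.

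**Figure D1:**
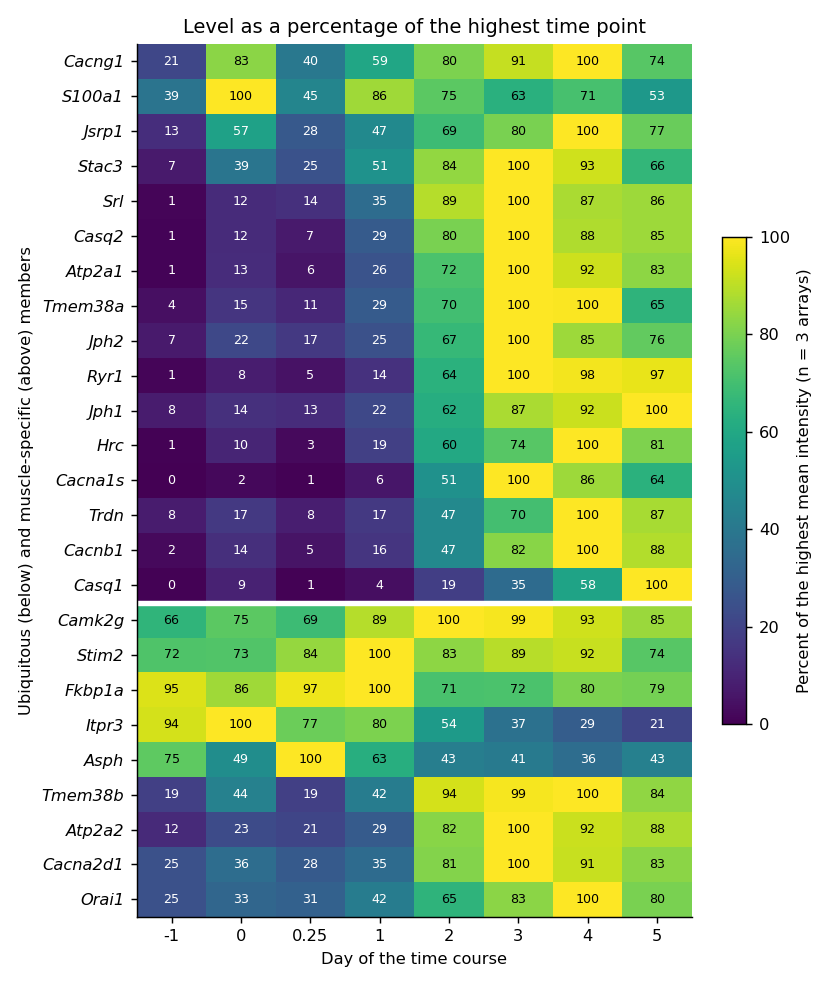
Level of each tested member at the 8 time points (columns, equally spaced) as a percentage of its own highest level, with muscle-specific genes above ubiquitous genes. Brighter cells are higher. Most muscle-specific rows brighten at Day 2, with a darker Day 0.25 between Day 0 and Day 1, while Asph, Fkbp1a, Itpr3, Stim2 and Camk2g are already bright at Day -1.

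The course ran in steps. Between Day -1 and Day 0, before serum was lowered, 16 of 16 tested muscle-specific genes rose, with a median log2 change of 2.48 (23.3% of all probe sets were higher and 21.7% lower). For 13 of the 16 at least 1 side of this step was below 100. With values below 50 raised to 50 the rise of Cacna1s vanished and that of Casq1 was 0.18, and neither passed. Of the ubiquitous genes Cacna2d1, Tmem38b and Atp2a2 rose and Asph fell; the call for Cacna2d1 was lost without replicate 1 or 3 of every time point. In the next 6 hours 14 of the 16 muscle-specific genes fell, with a median of -1.04 (20.9% of all probe sets were lower and 22.4% higher). The exceptions were Srl, which read 404 ± 18.2 on Day 0 and 456 ± 137 on Day 0.25 (log2 change 0.13, SE 0.27), and Jph1, which read 76.2 ± 5.12 and 70.1 ± 18.3 (-0.15, SE 0.18). Neither change passed. The falls of Cacna1s and Casq1 did not pass with values below 50 raised to 50. Of the ubiquitous genes Tmem38b fell and Asph and Fkbp1a rose, the last by only 0.19 (SE 0.07, adjusted p = 0.0388), a call lost without replicate 1, 2 or 3 of every time point.

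From Day 0.25 to Day 1 all 16 muscle-specific genes rose again, with a median of 1.37 (11.6% of all probe sets were higher and 15.4% lower), as did 4 ubiquitous genes, while Asph fell. This count rests partly on replicates 1 and 3: 14 members passed as higher without replicate 1 of every time point and 13 without replicate 3, in place of 20, while the share of all probe sets that were higher went from 11.6% to 5.58% and 4.93%. On Day 1 replicate 3 was the highest of the 3 arrays for 19 of 25 members and replicate 1 the lowest for 17. From Day 1 to Day 2, 14 muscle-specific and 4 ubiquitous genes rose (19.0% of all probe sets were higher) and Asph, Fkbp1a and Itpr3 fell (17.3% were lower). None of the 3 falls passed without replicate 1 (2.26% of all probe sets were then lower), and 1 passed without replicate 3 (9.65%). The muscle-specific genes that did not pass were S100a1 (-0.23, SE 0.22, adjusted p = 0.425) and Cacng1 (0.43, SE 0.14, adjusted p = 0.0536). Cacng1 passed in 6 of the alternatives, among them the fit of all 24 arrays (adjusted p = 0.0339) and quantile normalization (adjusted p = 0.0315).

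After Day 2 little passed. From Day 2 to Day 3 only Cacna1s, Cacnb1 and Jph2 rose and no member fell (3.23% of all probe sets were higher and 2.96% lower). That count was 0 without replicate 3 of every time point and 1 without replicate 1, where 0.181% and 0.675% of all probe sets were higher, and 1 fall passed without replicate 2 (4.08% lower). No member passed from Day 3 to Day 4 or from Day 4 to Day 5, where few probe sets did (0.473% higher and 0.663% lower, then 1.38% and 2.12%). Between Day 2 and Day 5 Cacnb1, Casq1, Jph1 and Trdn rose and Itpr3 fell (13.7% of all probe sets were higher and 21.1% lower). The number that rose was 2 without replicate 1 and 7 without replicate 2, where 7.0% and 13.2% of all probe sets were higher, and 2 members fell without replicate 3 (11.4% lower).

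**Figure D2:**
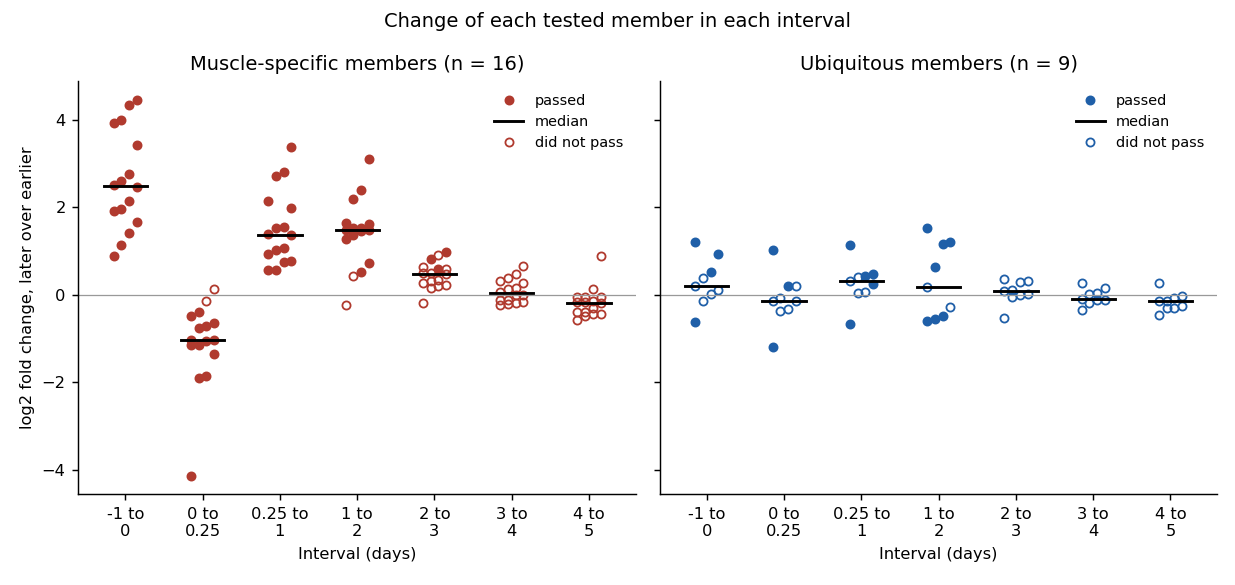
Log2 change of each tested member over the intervals between neighbouring time points, muscle-specific and ubiquitous genes side by side, with the median of each class. The muscle-specific median is 2.48 from Day -1 to Day 0, -1.04 over the next 6 hours and 1.49 from Day 1 to Day 2, and is 0.03 and -0.18 in the last 2 intervals, while the ubiquitous median stays between -0.15 and 0.31 throughout.

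The day on which a gene first reached 50% of its highest level differed among the muscle-specific genes. Cacng1, Jsrp1 and S100a1 were there on Day 0 and Stac3 on Day 1. The largest block, with Cacna1s, Ryr1, Hrc, Srl, Jph1, Jph2, Tmem38a, Atp2a1 and Casq2, got there on Day 2. Cacnb1 and Trdn followed on Day 3 and Casq1 on Day 4. Some of these days turned on levels close to the 50% mark. On Day 2 Cacna1s stood at 50.6% and Cacnb1 and Trdn at 47.1%, and on Day 1 Stac3 stood at 51.0%. The order of these genes was not tested. Of the ubiquitous genes, Cacna2d1, Tmem38b, Atp2a2 and Orai1 joined the Day 2 block and the other 5 were already above that mark on Day -1, of which Asph and Itpr3 were below it again on Day 5.

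The voltage sensor consists of the pore and sensor subunit Cacna1s (ID 12292) with Cacnb1, Cacng1 and Cacna2d1, and Stac3 is needed to couple it to Ryr1. Cacna1s read 4.43, 4.34 and 5.00 on Day -1, 35.4, 33.1 and 18.1 on Day 0, 9.06, 6.08 and 8.01 on Day 0.25, and 52.2, 87.9 and 109 on Day 1. It then read 797, 637 and 626 on Day 2, 1129, 1493 and 1453 on Day 3, 1082, 1053 and 1350.4 on Day 4, and 1053, 711 and 833 on Day 5. The arrays of neighbouring time points did not overlap up to Day 3. Its log2 change was 2.60 (SE 0.25) to Day 0, -1.86 (SE 0.25) over the next 6 hours, 3.38 (SE 0.25) to Day 1 and 3.10 (SE 0.26, adjusted p = 0.000624) to Day 2. The first 2 of these lie at intensities under 50 and were 0 once values below 50 were raised to 50. The third starts from values under 10 on Day 0.25, so its size also depends on how low values are treated. The level of Cacna1s was highest on Day 3, at 1358, and that of Day -1, 4.59, lay near the median of all probe sets.

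The beta subunit Cacnb1 (ID 12295), which helps bring the channel to the membrane, went on rising longer. It read 209, 252 and 344 on Day 1, 789, 957 and 694 on Day 2, and 1644, 1319.8 and 1616 on Day 5. All Day 5 arrays lay above all Day 2 arrays, with a log2 change of 0.91 (SE 0.20, adjusted p = 0.00132). The gamma subunit Cacng1 (ID 12299) was already measured at 488, 352 and 474 on Day -1 and at 1515, 1807 and 1774 on Day 0, then at 799.8, 880.2 and 784 on Day 0.25. It thus had most of its rise before induction (1.97, SE 0.16, adjusted p = 8.08e-09) and a fall in the 6 hours after (-1.05, SE 0.16, adjusted p = 3.27e-05), with no overlap of arrays in either step. Its level on Day 5, 1521 ± 322, was below the 1698 ± 160.1 of Day 0, though that pair was not compared.

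Stac3 (ID 237611) rose 2.46 (SE 0.15) before induction, from 28 ± 1.29 to 154 ± 7.29, and another 0.72 (SE 0.13, adjusted p = 0.0062) from Day 1 to Day 2, a call lost without replicate 1. Cacna2d1 (ID 12293), a subunit shared by calcium channels of many tissues, was never below 362 on any array. It read 545, 514 and 665 on Day 1 and 1501, 1097 and 1391 on Day 2, without overlap (1.21, SE 0.16, adjusted p = 0.00159). Clcn1, the chloride channel that steadies the surface membrane, was under 10 on all 24 arrays.

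The release channel Ryr1 (ID 20190) lets calcium out of the reticulum. It read 25.2, 31.1 and 24.8 on Day -1, 186, 204 and 157 on Day 0, and 2895, 2000.4 and 1778 on Day 5. The rise before induction was 2.75 (SE 0.23) and that over the whole course 6.34 (SE 0.23, adjusted p = 5.42e-15), an 80.9-fold difference. Trdn and Jsrp1 anchor calsequestrin or the sensor at the junction. Trdn (ID 76757), or triadin, rose from 23.9 ± 4.64 to 273 ± 80.9 over the course (3.49, SE 0.26). It was among the late risers, with 0.86 (SE 0.26, adjusted p = 0.0135) from Day 2 to Day 5, a call lost without replicate 1 or replicate 3. Jsrp1 (ID 71912) rose early, from 103 ± 20.8 on Day -1 to 445 ± 13.6 on Day 0 (2.14, SE 0.19).

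Hrc (ID 15464), a histidine-rich protein of the reticulum lumen that binds calcium, was near the floor on Day -1 at 4.43, 3.85 and 4.46. It read 94.3, 95.4 and 69.0 on Day 0, 22.3, 25.2 and 20.6 on Day 0.25, and 145, 201 and 136 on Day 1. The steps were 4.33, -1.91 and 2.80 on the log2 scale (SE 0.26 each), and no arrays overlapped in these steps. Each step has a side under 50, on Day -1 or Day 0.25, so these sizes depend on how low values are treated. Srl (ID 106393), or sarcalumenin, another luminal calcium binder, rose from 40.8 ± 17.3 to 404 ± 18.2 before induction (3.42, SE 0.27), and its change in the 6 hours after, given above, did not pass and was -0.12 without replicate 3.

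S100a1 (ID 20193), a small protein that binds Ryr1 and the pump, was the muscle-specific gene with the narrowest range, 2.59-fold. It read 195, 116 and 168 on Day -1, 374, 428 and 438 on Day 0, 185, 218 and 161 on Day 0.25, and 206, 189 and 266 on Day 5. Its highest level was on Day 0. The rise before induction (1.40, SE 0.21, adjusted p = 2.54e-05) and the fall after it (-1.14, SE 0.21, adjusted p = 0.000267) both passed without overlap. Its gain over the whole course was 0.48 (SE 0.21, adjusted p = 0.0464) with overlapping arrays, and that call was lost without replicate 2 or 3, with only the 6 arrays of both days (adjusted p = 0.0822) and with no level filter (adjusted p = 0.123).

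Of the ubiquitous genes, Fkbp1a (ID 14225), or FKBP12, which sits on the channel and steadies its closed state, read 5199, 5051 and 5329 on Day 1 and 3505, 3708 and 3884 on Day 2. The groups did not overlap and the log2 change was -0.49 (SE 0.10, adjusted p = 0.00782), a call lost without replicate 1 or 3. Over all 8 time points the levels of the probe set used kept within a 1.40-fold range. Its change from Day -1 to Day 5 was -0.26 (SE 0.07, adjusted p = 0.00291), a call also lost without replicate 1 and with only the 6 arrays of both days. Levels of other probe sets of this gene fell further from Day -1 to Day 5, from 2496 to 1503, from 2563 to 1635 and from 2495 to 1944. A probe set with a mean of 2.62 lay near the floor.

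The triad junction is held by junctophilins, which tie the reticulum to the surface membrane. Jph1 (ID 57339) read 402, 282 and 346 on Day 2 and 636, 504 and 513 on Day 5, without overlap (0.69, SE 0.18, adjusted p = 0.00605), and was 1 of only 2 muscle-specific genes with their highest level on Day 5. This call was lost without replicate 1. Jph2 (ID 59091) read 869, 803 and 758 on Day 2 and 1080.4, 1281 and 1266 on Day 3, without overlap (0.58, SE 0.14, adjusted p = 0.0239), but this step did not pass when any 1 replicate was left out, with only the 6 arrays of both days or with no level filter. Both rose over the course, Jph1 by 3.74 (SE 0.18) and Jph2 by 3.46 (SE 0.14).

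The counter-ion channels Tmem38a and Tmem38b let potassium balance the charge of released calcium. Tmem38a (ID 74166), the form abundant in muscle, rose from 46.3 ± 0.951 to 748 ± 44.6 (4.01, SE 0.17). Tmem38b (ID 52076), the widespread form, rose from 208 ± 28 to 912 ± 112 (2.13, SE 0.13). In the first 6 hours Tmem38b was the only tested ubiquitous gene whose fall passed. It went from 566, 465 and 412 to 199, 219.6 and 205 (-1.20, SE 0.13, adjusted p = 5.16e-07). Sypl2, a membrane protein of the triad, was under 10 on all arrays.

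**Figure D3:**
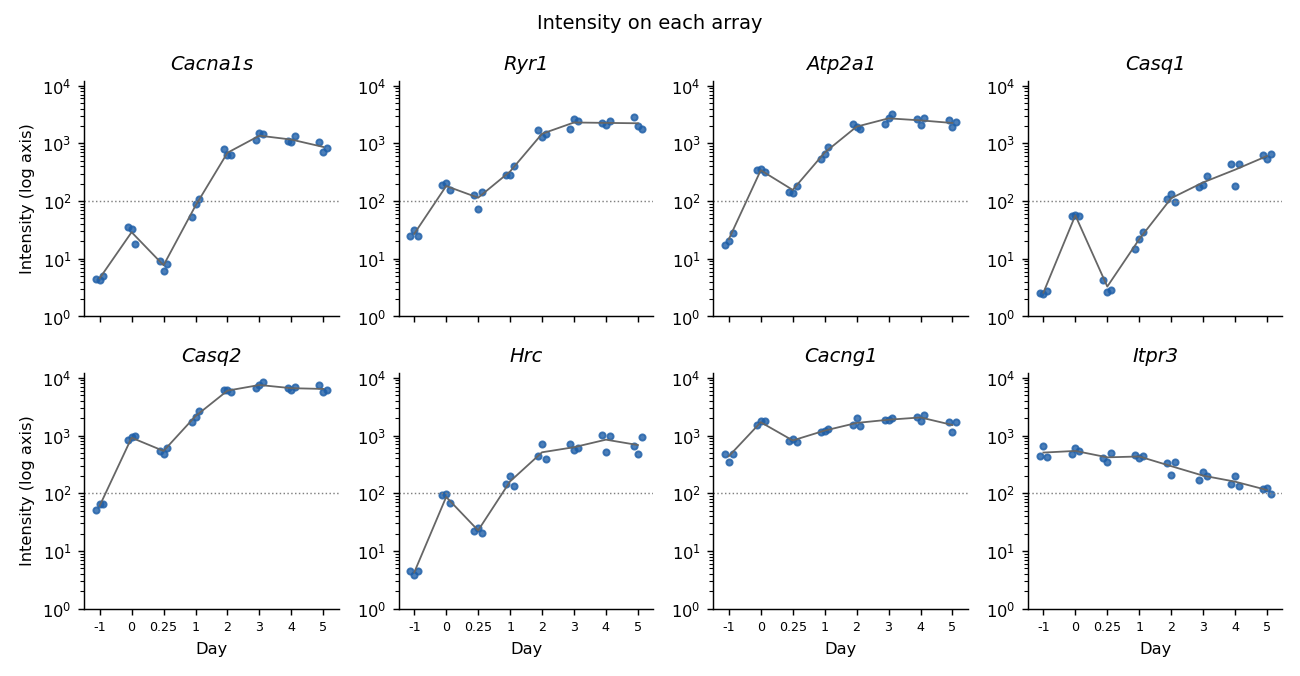
Intensity on every array (points, 3 per time point, log axis) of Cacna1s, Ryr1, Atp2a1, Casq1, Casq2, Hrc, Cacng1 and Itpr3, with the dotted line at 100. Casq1 returns at Day 0.25 to 2.64 to 4.32, close to its Day -1 arrays, while Casq2 and Atp2a1 stay above theirs, and Itpr3 is the gene that falls.

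SERCA pumps carry calcium back into the reticulum. Atp2a1 (ID 11937), the pump of fast fibres, read 17.6, 20.2 and 27.7 on Day -1, 344, 359.6 and 322 on Day 0, 145, 139 and 184 on Day 0.25, 539.8, 666 and 869 on Day 1, and 2123, 1955 and 1759.8 on Day 2. Its log2 changes were 4.00 (SE 0.19) before induction, -1.14 (SE 0.19) in the next 6 hours and 1.52 (SE 0.18, adjusted p = 0.00119) from Day 1 to Day 2, and no arrays overlapped in these steps. Atp2a2 (ID 11938), the pump of slow fibres, heart and most other cells, read 502, 715 and 530.4 on Day -1, 1174, 1310.1 and 1657 on Day 1, and 4366, 3397 and 4103 on Day 2. Its rise from Day 1 to Day 2 was 1.53 (SE 0.16, adjusted p = 0.000846), of the size of that of Atp2a1, but in the first 6 hours it moved by -0.16 (SE 0.16) and did not pass. Sln, or sarcolipin, which inhibits the pumps, was under 10 on all arrays. Atp2a3, a pump of blood and secretory cells, never exceeded a level of 31.6.

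The calsequestrins are the main calcium buffers of the lumen, Casq1 in fast fibres and Casq2 in slow fibres and the heart. Casq1 (ID 12372) read 2.56, 2.43 and 2.77 on Day -1, 56.1, 57.6 and 56.1 on Day 0, and 4.32, 2.64 and 2.93 on Day 0.25. It then read 107, 134 and 96.0 on Day 2, 435, 182 and 432 on Day 4, and 631, 531 and 647 on Day 5. Every Day 5 array was above every earlier array, and replicate 2 of Day 4 stood low. The change in the first 6 hours was -4.13 (SE 0.28, adjusted p = 1.17e-09) and with values below 50 raised to 50 it was -0.18 and did not pass. From Day 2 to Day 5 it gained 2.44 (SE 0.28, adjusted p = 1.84e-06), more than any other tested member.

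Casq2 (ID 12373) read 52.0, 64.9 and 64.4 on Day -1, 842, 927 and 978 on Day 0, 538, 477 and 606 on Day 0.25, and 6176, 6036 and 5757 on Day 2. It rose 3.93 (SE 0.14) before induction, fell by 0.77 on the log2 scale (SE 0.14, adjusted p = 0.00034) in the next 6 hours and rose 1.49 (SE 0.16, adjusted p = 0.000913) from Day 1 to Day 2, with no overlap. It was measured this high while the cardiac markers listed above stayed below 100. Pvalb, or parvalbumin, the cytosolic buffer of fast fibres, was under 10 on all arrays.

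Among the routes that other cells use, Itpr3 (ID 16440) is an IP3 receptor, a release channel opened by hormone signals. It read 449.9, 651 and 418 on Day -1, 328, 208 and 348 on Day 2, and 120.3, 124 and 96.4 on Day 5. All Day 5 arrays lay below all arrays of both earlier days, with log2 changes of -2.14 (SE 0.20, adjusted p = 1.14e-08) from Day -1 and -1.35 (SE 0.20, adjusted p = 3.61e-05) from Day 2. Its smaller fall from Day 1 to Day 2 (-0.59, SE 0.20, adjusted p = 0.049) was lost without replicate 1 or 3 and with no level filter. Itpr2 kept to levels between 37.2 and 55.5 and was not tested.

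Store-operated entry refills the reticulum. Orai1 (ID 109305), its channel, rose from 92.4, 77.3 and 91.9 on Day -1 to 286, 241 and 309.9 on Day 5, without overlap (1.68, SE 0.16, adjusted p = 1.11e-08). Stim2 (ID 116873), a calcium sensor of the reticulum, read 616, 732 and 619 on Day -1 and 673, 664 and 675 on Day 5, with overlap and a log2 change of 0.04 (SE 0.09, adjusted p = 0.723). It stayed within a 1.38-fold range and was highest on Day 1, where its rise from Day 0.25 (0.25, SE 0.09, adjusted p = 0.0454) was lost without replicate 1, 2 or 3, with no level filter and with only the 6 arrays of both days. The level of Stim1, the main sensor, went from 12.6 ± 1.33 to 30.4 ± 4.31 below the tested range.

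The calmodulin kinases respond to calcium signals. Camk2g (ID 12325), the gamma form of kinase II, read 575, 568 and 605 on Day -1 and 539, 862 and 863 on Day 5, with overlapping arrays and a log2 change of 0.34 (SE 0.16, adjusted p = 0.0711). Another probe set of this gene passed (0.44, SE 0.13, adjusted p = 0.00423), and so did the one used above without replicate 1 (0.56, adjusted p = 0.0223). Camk2a, the form known best from brain, had levels from 7.72 on Day 1 to 56.8 on Day 4. Ryr3, a release channel of several tissues, had levels from 5.49 on Day -1 to 32.9 on Day 3. Both stayed below 100 and were not tested. In all, 4 muscle-specific genes (Clcn1, Sypl2, Sln and Pvalb) were under 10 on all arrays and 5 ubiquitous genes (Ryr3, Atp2a3, Itpr2, Stim1 and Camk2a) were below 100 at all time points.

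Ratios of related genes were followed within arrays, and no change passed after adjustment. Within each array the log2 ratio of 2 genes was taken and its change from Day -1 to Day 5 compared by an exact two-sided permutation test, for 8 pairs; with 3 arrays against 3 the smallest possible p is 0.1, which is 0.114 after adjustment over the pairs. The ratio shows unequal change only, not which gene is more abundant. Atp2a1 gained 3.84 on Atp2a2 (-4.83, -5.15 and -4.26 on Day -1 against -0.97, -1.08 and -0.68 on Day 5; exact p = 0.1), and had reached -1.01 ± 0.10 on Day 1. It gained 2.61 when values below 50 were raised to 50. Tmem38a gained 1.88 on Tmem38b (exact p = 0.1), with all 3 Day 5 arrays above all 3 of Day -1. Jph1 and Jph2 changed by 0.28 relative to each other, with overlapping arrays (exact p = 0.3).

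The ratio of Casq1 to Casq2 was lowest on Day 0.25, when Casq1 read between 2.64 and 4.32, near the floor. It was -4.54 ± 0.20 on Day -1, -7.38 ± 0.38 on Day 0.25 and -3.41 ± 0.15 on Day 5, a gain of 1.14 from the first to the last (exact p = 0.1). This gain starts from Casq1 values under 3 and turned to -3.14 with values below 50 raised to 50 and to -1.34 with 16 added to every value. In the other 4 pairs 1 gene was below 100 at all time points. Ryr1 gained 4.19 on Ryr3, Stim1 gained 1.23 on Stim2, Camk2a gained 1.15 on Camk2g, and the ratio of Itpr3 to Itpr2 changed by -2.48 (exact p = 0.1 for each). The directions for Stim1 and Camk2a turned to -0.037 and -0.34 with values below 50 raised to 50.

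**Figure D4:**
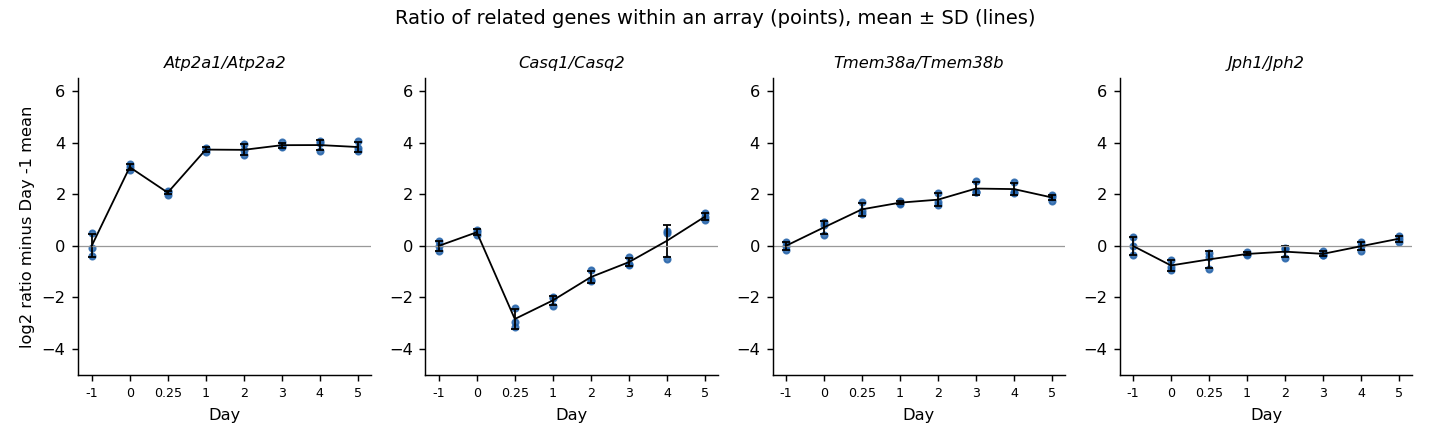
Log2 ratio of related genes within each array at the 8 time points, drawn as the difference from the Day -1 mean of that ratio (points are arrays, lines are means with SD). The pump ratio ends 3.84 above its Day -1 mean and the junctophilin ratio 0.28 above with overlapping arrays. The calsequestrin ratio is lowest at Day 0.25, where Casq1 lies near the floor, and ends 1.14 above.

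For 2 ubiquitous genes the choice of probe set decided the direction, which was noticed after the values were seen. Atp2a2 gives SERCA2a of muscle and SERCA2b of other cells by alternative splicing, and Asph gives aspartyl hydroxylase as well as junctin, the partner of triadin. Which transcripts each probe set reads was not given in the sources used here. The Atp2a2 probe set used above rose from 583 ± 116 to 4225 ± 578 between Day -1 and Day 5 (2.87, SE 0.16), and a second one rose from 317 ± 73.6 to 2491 ± 350.3 (2.99, SE 0.18). In contrast a probe set with a higher Day -1 level, 3074 ± 303, fell, from 2859.9, 3421 and 2940.1 to 2444, 1881 and 1852 (-0.59, SE 0.13, adjusted p = 0.000484), without overlap. With that probe set the gain of Atp2a1 over Atp2a2 was 7.29 in place of 3.84. A probe set of Atp2a2 at lower levels read 208 ± 33.9 on Day -1 and 261 ± 47.3 on Day 5.

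The Asph (ID 65973) probe set used above read 295, 359.7 and 319 on Day -1, 219, 213 and 202 on Day 0, 442, 402 and 448 on Day 0.25, and 209, 198 and 155 on Day 5. This probe set ran against the muscle-specific genes at each early step. Its changes were -0.61 (SE 0.13) before induction, 1.03 (SE 0.13, adjusted p = 6.19e-06) in the next 6 hours and -0.68 (SE 0.13) to Day 1. It was lower by Day 5 (-0.80, SE 0.13). Its fall from Day 1 to Day 2 (-0.56, SE 0.15, adjusted p = 0.0226) was lost without replicate 1 and with no level filter. The early course was not shared by a probe set of Asph with a similar mean over all arrays, 234 against 242. That one read 271 ± 41.9 on Day -1, 242 ± 19.6 on Day 0 and 262 ± 21.9 on Day 0.25. It then read 204 ± 5.19 on Day 1, 264 ± 42.4 on Day 2 and 204 ± 56.6 on Day 5. A different probe set of Asph rose from 59.8 ± 16 to 131 ± 31.3 between Day -1 and Day 5 (1.14, SE 0.29, adjusted p = 0.00149). Another 2 went from 3.80 ± 0.899 and 8.49 ± 2.95 to 97.6 ± 15.3 and 78.6 ± 20.9, below the tested range. Over all members, other tested probe sets of a gene whose change passed from Day -1 to Day 5 had the same call in 18 cases, the opposite call in 2 and did not pass in 1. In the early steps these counts were 12 same and 6 not passed from Day -1 to Day 0, 6 same and 8 not passed in the next 6 hours, and 9 same, 1 opposite and 5 not passed from there to Day 1.

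**Figure D5:**
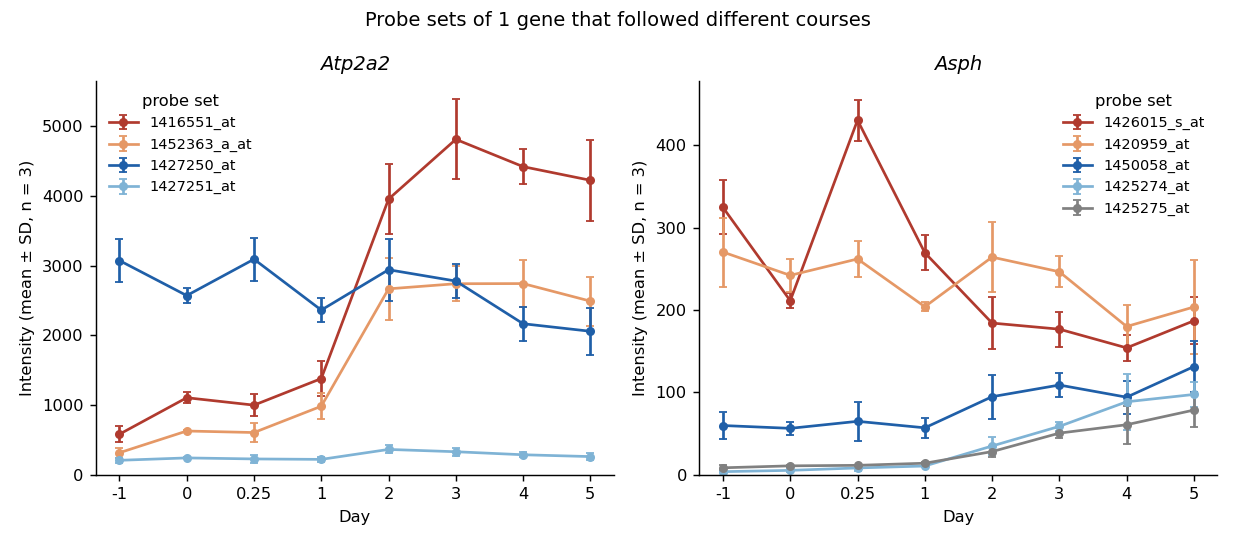
Intensity of probe sets of Atp2a2 and Asph at the 8 time points (mean and SD of 3 arrays, linear axis from 0), coloured by probe set. Probe sets whose levels stayed under 10 are not drawn. For Atp2a2 a pair of lines climbs to 4225 and 2491 on Day 5. The line that starts at 3074 ends at 2059 and the one that starts at 208 ends at 261. For Asph the line that peaks at 431 on Day 0.25 ends at 187. The one that starts at 59.8 ends at 131 and the one that starts at 271 ends at 204.

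Other calcium genes had smaller changes at the median. Of 130 other genes of calcium transport, binding and signalling, 114 had a probe set and 57 were tested, of which 24 were higher and 14 lower on Day 5 than on Day -1, with a median log2 change of 0.17, where 31.9% of all probe sets were higher and 38.4% lower. None of 14 measured subunits of other voltage-gated calcium channels reached 100. Among 6 pumps, exchangers and pump regulators tested, Slc8b1 rose and 3 fell, among them Sri, or sorcin, which binds release channels (1379.6 ± 269 to 309 ± 34.0; -2.14, SE 0.19), and Atp2b1, the calcium pump of the surface membrane (2031 ± 328 to 817 ± 87.6; -1.31, SE 0.15). Among 4 tested genes on a list of store-operated and TRP entry, Saraf, which restrains store-operated entry, rose (1.07, SE 0.08). Sh3kbp1 (-1.20, SE 0.10) and Homer1 (-1.11, SE 0.19), also on that list, fell, and their part in such entry was not tested.

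The counts of the next lists, from Day -1 to Day 5, stand beside the same 31.9% higher and 38.4% lower of all probe sets, and nothing particular to a list is read from them. Of 10 luminal chaperones and buffers, 2 rose and 1 fell, with the largest change in Rcn3 (63.2 ± 2.96 to 871 ± 234; 3.75, SE 0.27). Of 8 genes of mitochondrial uptake, 3 rose and 2 fell, among them the uniporter pore Mcu (183 ± 21.6 to 444 ± 45.5; 1.28, SE 0.12). Of 15 genes of calmodulin signalling, 8 rose and 2 fell, with Rcan2, an inhibitor of calcineurin, up by 2.45 (SE 0.17) and the kinase Mylk by 3.79 (SE 0.23). Of 2 genes of surface excitation tested, Atp1b1, a subunit of the sodium pump, rose (3.09, SE 0.15) and Clcn3 fell (-0.39, SE 0.13). The list nearest the members, reticulum and triad structure, had 8 of 12 higher and 3 lower. Rtn2 (169 ± 19.1 to 1319 ± 176, log2 change 2.96, SE 0.12) was up, and Speg (-0.97, SE 0.13) and Reep5 (-0.50, SE 0.13) were down. Also counted among the 8 was Myom1 (2.20 ± 0.512, below the median of all probe sets, to 788 ± 293), which is a sarcomere gene of the M-band.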

How the data were processed

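RNA of C2C12 cells was hybridised to 24 arrays, 3 at each of 8 time points, and the labels gave each array its time point and number. The deposited table holds the intensity of 45101 probe sets on a linear scale, which the authors made with GC-RMA, raised to base 2 and scaled to a trimmed mean; the submitters' processing notes name GCRMA and MAS5, the latter with no role given. All 24 columns were used and no 2 arrays were identical. Probe sets were named by the array's annotation, and only those with 1 gene were used for genes (34958; 932 had several and 9211 none).

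Log2 intensities were tested with limma 3.58.1 in R 4.3.3, with Benjamini-Hochberg adjustment over all probe sets tested and a threshold of 0.05. Day 1 and Day 2 were compared on their 6 arrays, over the 12622 probe sets whose level reached 100 on 1 or both days. The other comparisons came from 1 fit of 8 groups over the 13735 probe sets that reached it at any time point; 64 control probe sets were left out. The procedure was tested on simulated data. Ratios of related genes were compared with an exact permutation test. Sequences came from a RefSeq promoter table (GRCm38.p6). The members, their classes and the other gene lists were chosen with earlier results of these data known. The text accounts for all members and names from each other list at most 2 genes per direction, those with the lowest adjusted p.

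Alternatives were another choice of arrays in the fit, the replicate number as a block, a minimum level of 200 or none, 16 added before log2, a floor of 50 under the values, quantile normalization, an intensity trend in the prior, choice of probe set by absolute moderated t, and leaving out each replicate number. Same-numbered arrays deviated together only from Day 3 to Day 4, with r between 0.210 and 0.350 over 3 pairs.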

Additional observations from a re-analysis of the deposited data

How the results depend on the processing

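Of 76 changes of single genes given in the text, with 903 values under the alternatives, 844 kept their direction and their side of the threshold, 47 lost the call, 8 gained it and 4 changed sign. The 4 had not passed: Srl from Day 0 to Day 0.25 (between -0.12 and 0.38 when each replicate was left out), Atp2a2 over the same interval (0.26 with the probe set of highest absolute moderated t) and Stim2 from Day -1 to Day 5 (between -0.00828 and 0.12 when each replicate was left out). For 9 combinations no value could be had, since the level filter left the gene out.

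Of the counts of members, those lower from Day -1 to Day 0 became 2 with no level filter, with quantile normalization and with an intensity trend. Those higher from Day 0 to Day 0.25 became 1 with only the 6 arrays of both time points and with quantile normalization, and ranged from 1 to 1 when each replicate was left out. Leaving out each replicate gave 13 to 19 members higher from Day 0.25 to Day 1, 0 to 3 lower over Days 1 to 2, 0 to 3 higher and 0 to 1 lower over Days 2 to 3, and 2 to 7 higher and 1 to 2 lower between Days 2 and 5. From Day 2 to Day 3, 1 member was higher with only 6 arrays and with no level filter. From Day 4 to Day 5, 1 was lower with no level filter, and 1 was higher with values below 50 raised to 50 and with 16 added. From Day 2 to Day 5, 2 were lower with the probe set of highest absolute moderated t. The cause of these differences was not tested.

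Ratios of related genes moved most where 1 gene lay low. With values below 50 raised to 50 and with 16 added, the change was 2.61 and 3.07 for Atp2a1 to Atp2a2, 5.44 and 4.76 for Ryr1 to Ryr3, -3.14 and -1.34 for Casq1 to Casq2, -0.037 and 0.66 for Stim1 to Stim2, -2.22 and -2.23 for Itpr3 to Itpr2, and -0.34 and 0.40 for Camk2a to Camk2g. It was 1.56 for Tmem38a to Tmem38b with 16 added and -0.0047 for Jph1 to Jph2 with values raised to 50. Raising low values sets them equal by construction. With the Atp2a2 probe set that fell, chosen after seeing the data, it was 7.29.

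The replicate block was fitted for all comparisons. The labels give the arrays only a replicate number, so whether arrays are paired cannot be told from them. From Day 3 to Day 4, where same-numbered arrays deviated together, the block gave 0 members higher and 0 lower, as without it. In the other comparisons they did not all deviate together. From Day 1 to Day 2 r lay between -0.318 and 0.510 and 1 of 3 arrays was closest to its own number. The block moved no count of members by over 1.5 times, and of the single changes in the text it ended the calls of S100a1 from Day -1 to Day 5 (adjusted p = 0.0612) and Stim2 from Day 0.25 to Day 1 (adjusted p = 0.0572) and gave one for Cacng1 from Day 1 to Day 2 (adjusted p = 0.0402).

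The lower end of the scale limits these results: 13 of 16 tested muscle-specific genes were below 100 on Day -1, and folds that start there depend on how low values are treated.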
